A study of Homo sapiens with 11 samples.

Results

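Cohesin, its loaders, its release factors and CTCF were followed in MDA-MB-231 cells as a set of 9 genes, CTCF, RAD21, SMC3, STAG1, NIPBL, MAU2, WAPL, PDS5A and PDS5B. The members were chosen by their function and not by a measured value, but with earlier results of these data known. All 9 were found, by Ensembl identifier and GENCODE symbol, among the 23167 genes of the count tables. MDA-MB-231 is an established triple-negative breast cancer (TNBC) line derived from a pleural effusion. RNA-seq covered 2 WT libraries, from cells treated for 3 days with the transfection reagent INTERFERin without any siRNA, and 2 mH2A1.1 KD libraries, from cells transfected for 3 days with 11 nM siRNA against mH2A1.1, one of the splice isoforms of the histone variant macroH2A1. The WT cells received no siRNA at all, so that the presence of an siRNA and the loss of mH2A1.1 cannot be told apart. ChIP-seq peaks came from WT cells, with 1 library for an antibody raised against mH2A1.1 and 1 for a commercial antibody against total mH2A1. The sample titles do not say whether these cells received the transfection reagent. The paper reports that the antibody against total mH2A1 recognises both isoforms, and mH2A1.1 with less affinity than the first antibody. The comparison addressed here is whether the RNA of the machinery that folds chromosomes differed after the knockdown. Where the peaks of mH2A1.1 and of total mH2A1 lay at its genes is also described.

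Cohesin is a ring of SMC1A, SMC3 and RAD21 to which STAG1 or STAG2 binds, and it extrudes chromatin loops and holds sister chromatids together. NIPBL and MAU2 form the complex that loads cohesin, WAPL with PDS5A or PDS5B releases it, and CTCF, a zinc finger protein, halts it at its binding sites and so sets the borders of loops and topological domains. Several of these genes are mutated in cancers or in cohesin-related developmental disorders such as Cornelia de Lange syndrome.

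The sequence before the start of 4 of these genes is shown because mH2A1.1 peaks lay at the start of CTCF, PDS5A and MAU2, while SMC3 had no peak of either antibody within the gene. The sequences are from RefSeq (GRCh38.p14) and run 5′ to 3′ along the coding strand from 220 bases before to 30 bases after the RefSeq start, at chr16:67562306-67562555 (plus strand) for CTCF, chr4:39977882-39978131 (minus strand) for PDS5A, chr19:19320609-19320858 (plus strand) for MAU2 and chr10:110567475-110567724 (plus strand) for SMC3. Capitals mark matches to a GC box, a CCAAT box or a YY1 motif.
CTCF: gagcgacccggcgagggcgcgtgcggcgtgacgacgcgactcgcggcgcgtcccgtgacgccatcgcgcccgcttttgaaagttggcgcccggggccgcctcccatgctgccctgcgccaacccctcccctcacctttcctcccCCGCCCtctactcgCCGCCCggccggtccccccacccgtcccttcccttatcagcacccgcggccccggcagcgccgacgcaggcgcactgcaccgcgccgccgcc
PDS5A: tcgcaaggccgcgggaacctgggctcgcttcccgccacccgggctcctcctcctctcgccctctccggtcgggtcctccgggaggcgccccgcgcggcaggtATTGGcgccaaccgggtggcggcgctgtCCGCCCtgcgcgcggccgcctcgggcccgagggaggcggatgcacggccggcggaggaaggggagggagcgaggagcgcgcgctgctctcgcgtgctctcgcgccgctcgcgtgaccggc
MAU2: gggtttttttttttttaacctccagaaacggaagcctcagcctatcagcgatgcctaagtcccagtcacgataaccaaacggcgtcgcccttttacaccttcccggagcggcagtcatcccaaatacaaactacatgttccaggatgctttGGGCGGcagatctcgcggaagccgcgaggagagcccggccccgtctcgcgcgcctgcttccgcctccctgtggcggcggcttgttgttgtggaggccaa
SMC3: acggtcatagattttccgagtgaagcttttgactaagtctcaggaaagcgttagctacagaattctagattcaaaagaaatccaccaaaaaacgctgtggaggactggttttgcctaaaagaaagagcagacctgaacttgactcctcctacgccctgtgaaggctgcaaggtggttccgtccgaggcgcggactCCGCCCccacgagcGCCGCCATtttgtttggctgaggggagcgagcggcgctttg

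Promoter sequences were examined for 8 of the 9 members, with RAD21 left out. On both strands, 7 motifs were searched over the same 250 bases of 35116 RefSeq promoters. A GC box (GGGCGG) was present in all 8, against 42.9% of all promoters, and a CCAAT box (CCAAT) in 4, STAG1, WAPL, PDS5A and PDS5B, against 31.4%. The YY1 motif ATGGCGGC was found in SMC3 alone (2.08% of all promoters), the ETS motif CCGGAAG in NIPBL alone (9.49%) and the CTCF core motif AGGGGGCGC in PDS5B alone (1.69%). No motif searched contains another. None of these 8 held a TATA box (TATAAA, 10.0% of all promoters) or the NRF1 motif GCATGCGC (2.87%) in this window. The GC content of the window was 52.4% in SMC3 and 58.0% in MAU2, and between 69.6% and 78.4% in the other 6, against a median of 58.8% over all promoters. The window of PDS5A held 41 CpG dinucleotides, that of CTCF 40, that of MAU2 21 and that of SMC3 16, against a median of 11. These matches describe the letters only, and binding of the named factors was not measured.

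The libraries differed in depth, with 9794674 and 7856892 counts in WT, 5584962 in KD replicate 1 and 2309549 in KD replicate 2. KD replicate 2 held 30 counts in all on chromosomes 21, 22 and X, where the other libraries held between 367149 and 609961, so genes there have no usable value in that library. No member lies on those chromosomes. MACROH2A1, the targeted gene, gave 367 and 375 CPM (counts scaled to library size) in WT and 260 and 285 CPM in KD (log2 fold change of −0.44 ± 0.14 SE, edgeR adjusted p = 0.359; DESeq2 adjusted p = 0.0031), a value that sums its isoforms. Of the markers looked up, VIM, CD44, KRT18, EGFR and ITGB1 were all at 328 CPM or more, ESR1 and PGR had 0 counts, and CDH1 (0.359 to 2.38 CPM) was low. EPCAM was at 19.0 to 23.0 CPM. Per kilobase of summed exon length its WT mean was 8.23, above 57.0% of the genes tested, so it was not low for its length. COL1A1, a fibroblast marker, was at 8.26 and 9.23 CPM in WT and 17.4 and 31.4 CPM in KD, and PECAM1, an endothelial marker, at 2.91 to 5.21 CPM over the 4 libraries, and their part in the results below was not tested.

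All levels below are CPM, counts scaled to a common library total with edgeR's TMM factors, n = 2 libraries per group, and every fold change is KD over WT on the log2 scale. In 8 of the 9 members both KD libraries lay below both WT libraries, against 32.8% of the 11723 genes tested, and in the remaining one, MAU2, both lay above, against 30.1%. The members' log2 fold changes ran from −0.67 to 0.55 with a median of −0.52, where the median over all genes tested was −0.05. A call needed both a fold change over 1.5 and an adjusted p under 0.1. None of the 9 was called by edgeR, nor was any other gene (0% of those tested). The lowest edgeR adjusted p over all genes tested was 0.359. At an unadjusted p under 0.05 with the same fold change, 1 member, RAD21, was lower, against 6.01% of all genes, and 0 were higher, against 4.49%. DESeq2 also placed RAD21 alone below its threshold, against 5.78% of 9262 genes called lower and 4.43% called higher. The spread that edgeR shares over all genes, a coefficient of variation, was 0.361 in the main fit. With the genes of chromosomes 21, 22 and X left out it was 0.166. RAD21 then had an edgeR adjusted p of 0.194, and 0 genes were called. In both KD libraries the members with GC-poor exons were low, as most GC-poor genes were, and after a correction for GC content and exon length their edgeR values lay between −0.17 and 0.12.

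**Figure D1:**
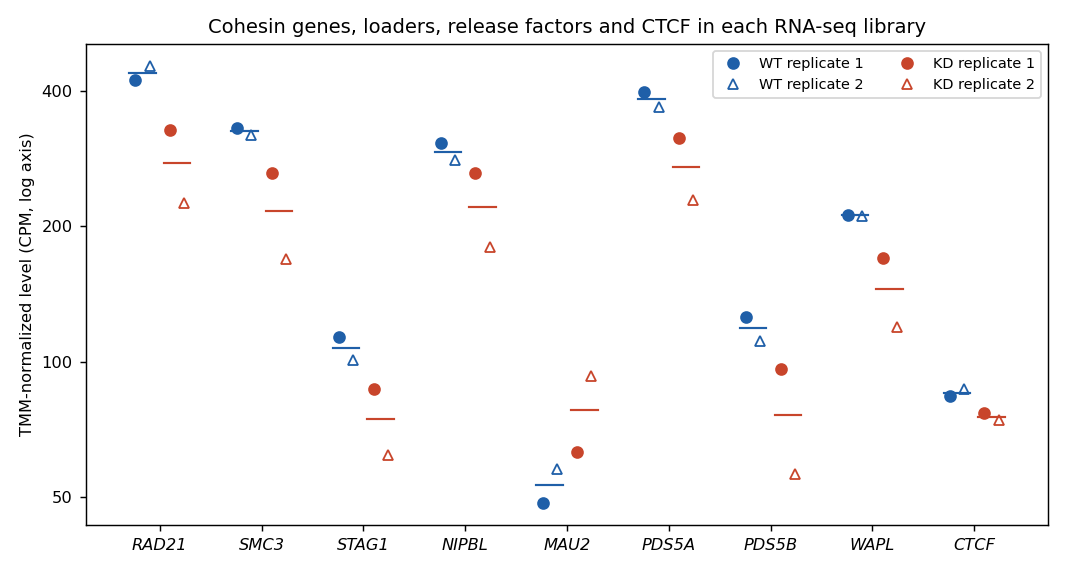
TMM-normalized level of the 9 genes (y axis, CPM, log scale) in each of the 2 WT (blue) and 2 KD (red) RNA-seq libraries, with bars at the group means. Both KD points lie below both WT points for all genes but MAU2, and KD replicate 2 lies farther from WT than KD replicate 1 in every gene.

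Among the subunits of the ring, RAD21, the kleisin that closes it and is cut by separase at anaphase, was at 425 and 456 CPM in WT and at 328 and 226 CPM in KD. The KD libraries were at 74.5% and 51.3% of the WT mean, and the groups did not overlap. The fold change of −0.67 ± 0.23 SE had an edgeR adjusted p of 0.359 and a DESeq2 adjusted p of 0.098. That DESeq2 call was no longer made when its filtering target was 0.05 instead of 0.1 (adjusted p = 0.1003), and with KD replicate 2 left out the edgeR fold change was −0.42, under the fold threshold.

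SMC3, one of the paired ATPase arms of the ring, was at 331 and 320 CPM in WT and at 263 and 169 CPM in KD. Its WT libraries differed by little, KD replicate 2 was at 64.2% of KD replicate 1, and the groups did not overlap. The fold change was −0.59 ± 0.26 SE with an edgeR adjusted p of 0.361, and DESeq2 gave an adjusted p of 0.182. STAG1, the HEAT-repeat subunit that links the ring to CTCF and DNA, gave 114 and 101 CPM in WT and 87.1 and 62.0 CPM in KD. Here too both KD libraries were lower, at 81.2% and 57.8% of the WT mean. Its fold change of −0.52 ± 0.23 SE had an edgeR adjusted p of 0.361.

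The loader genes lay on opposite sides of WT. NIPBL, the large HEAT-repeat protein that stimulates the ATPase of cohesin, was at 306 and 281 CPM in WT and at 263 and 180 CPM in KD. Its KD replicate 1 was at 89.5% of the WT mean, and KD replicate 2 at 61.4%. The fold change was −0.41 ± 0.23 SE (edgeR adjusted p = 0.391). MAU2, the partner that stabilises NIPBL, was the only member that was higher in KD, with 48.5 and 57.7 CPM in WT and 62.8 and 93.0 CPM in KD. KD replicate 1 stood close to WT replicate 2, while KD replicate 2 was at 175% of the WT mean. The fold change of 0.55 ± 0.27 SE had an edgeR adjusted p of 0.363 and a DESeq2 adjusted p of 0.215. Set against each other per kilobase of exon, NIPBL exceeded MAU2 5.55-fold and 4.27-fold in WT, 3.67-fold in KD replicate 1 and 1.70-fold in KD replicate 2. Per canonical transcript length the same ratios were 2.94 and 2.26 in WT, 1.94 in KD replicate 1 and 0.900 in KD replicate 2, so that in this last library the order of the genes turns with the length used. With 2 libraries in each group, an exact permutation test of such a ratio cannot give a two-sided p under 0.333.

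Of the release factors, WAPL, which opens the exit gate of the ring, was at 212 and 211 CPM in WT and at 170 and 119 CPM in KD. The WT libraries were close to each other, and the KD libraries were at 80.4% and 56.4% of the WT mean. The fold change of −0.55 ± 0.22 SE gave an edgeR adjusted p of 0.359. PDS5A and PDS5B are paralogs that bind the kleisin and serve both in release and in the protection of acetylated cohesin. PDS5A was at 398 and 369 CPM in WT and at 314 and 229 CPM in KD, a fold change of −0.50 ± 0.21 SE (edgeR adjusted p = 0.359). PDS5B was at 126 and 111 CPM in WT and at 96.2 and 56.1 CPM in KD. Its KD replicate 2 was at 47.3% of the WT mean, the lowest share among the members, and rested on 125 counts, with a Poisson interval of 46.7 to 66.9 CPM for counting error. The PDS5B fold change of −0.63 ± 0.31 SE (edgeR adjusted p = 0.364) had the largest SE of the 9. PDS5A exceeded PDS5B per kilobase of exon 3.41-fold and 3.59-fold in WT and 3.53-fold and 4.41-fold in KD, with the highest ratio in KD replicate 2.

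Before any correction for GC content, CTCF itself was the member that differed least, with 83.8 and 87.0 CPM in WT and 76.8 and 74.1 CPM in KD. The groups did not overlap, and the KD libraries were close to each other, at 89.98% and 86.8% of the WT mean. Its fold change of −0.18 ± 0.14 SE (edgeR adjusted p = 0.507; DESeq2 adjusted p = 0.402) stayed between −0.15 and −0.21 when any 1 library was left out. CTCF was also the member in which KD replicate 2 was nearest to KD replicate 1, at 96.4% of it, where the other lower members were between 58.3% and 72.9%.

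KD replicate 2 set the size of the other differences. Without it, the edgeR fold changes of the members lay between −0.42 (RAD21) and 0.25 (MAU2), 6 of the 9 had an adjusted p under 0.1, against 27.5% of the 12135 genes tested in that fit, and none passed a fold change of 1.5 as well, against 7.96%. Without KD replicate 1, they lay between −1.09 (PDS5B) and 0.81 (MAU2), and RAD21, SMC3, STAG1, NIPBL, WAPL, PDS5A and PDS5B were called lower, against 26.5% of 12235 genes, and MAU2 was called higher, against 19.1%. In both of these fits the spread came from the WT pair alone, and the single KD library was assumed to vary as much. CTCF was not called in either.

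**Figure D2:**
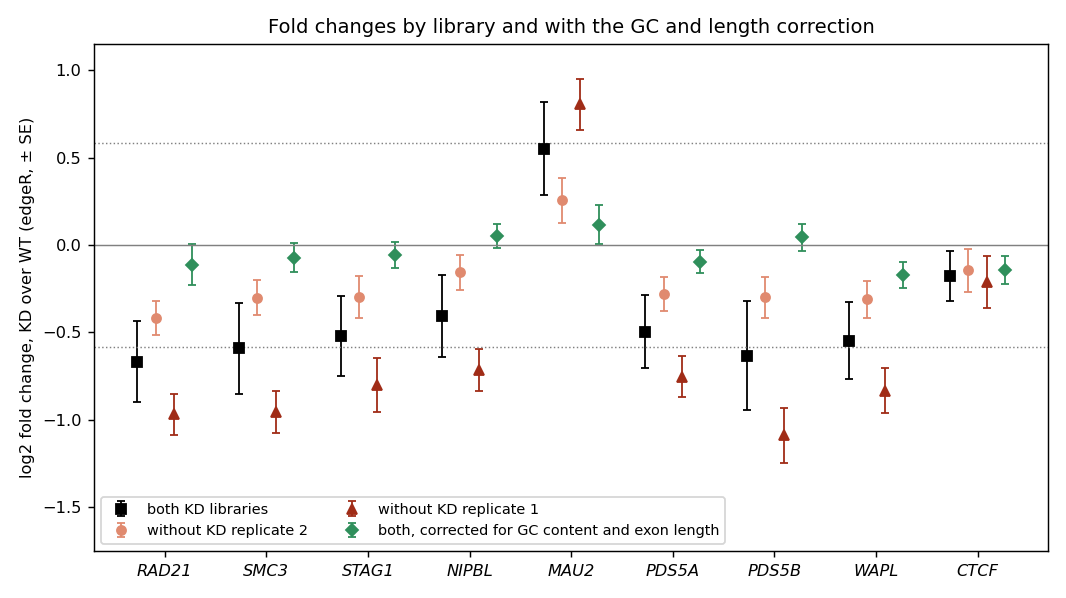
edgeR log2 fold change of each gene (y axis, KD over WT, bars ± SE) with both KD libraries, with either one left out, and after the correction for GC content and exon length; dotted lines mark a fold change of 1.5. The corrected values (green) lie between −0.17 and 0.12.

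The members also differed in the GC content of their exons. PDS5B had the lowest, 34.2%, followed by RAD21 (36.5%), SMC3 (36.9%), NIPBL (38.5%), STAG1 (39.0%), PDS5A (39.6%) and WAPL (40.5%). CTCF was near the middle of the genes tested with 46.2%, and MAU2 was GC-rich with 57.4%. Over the genes tested, the level in KD relative to WT was higher at a higher exon GC content, with a Spearman's rho across 10943 genes outside chromosomes 21, 22 and X, which are not independent replicates, of 0.43 in KD replicate 1 and 0.75 in KD replicate 2. WT replicate 1 minus WT replicate 2 gave a rho of −0.39 over the same genes, so the WT libraries also differed along GC content. The genes were split by GC content into 4 groups of equal size. In the most GC-poor group, which holds 7 members, the median log2 difference from the WT mean was −0.23 in KD replicate 1 and −0.75 in KD replicate 2. These 7 members lay between −0.16 and −0.42 in the first and between −0.70 and −1.08 in the second. CTCF was at −0.15 and −0.20, where its group had medians of −0.04 and −0.28, and MAU2 at 0.24 and 0.81, where the most GC-rich group had 0.18 and 0.70.

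After the trends on GC content and exon length were removed within each library, the members' fold changes had a range of −0.17 to 0.12 and a median of −0.07. RAD21 was then at −0.11 ± 0.12 SE, SMC3 at −0.07 ± 0.08, STAG1 at −0.06 ± 0.07, WAPL at −0.17 ± 0.07, PDS5A at −0.09 ± 0.06, CTCF at −0.15 ± 0.08 and MAU2 at 0.12 ± 0.11. NIPBL (0.05 ± 0.07) and PDS5B (0.04 ± 0.08) changed sign. In this fit WAPL and CTCF had the largest absolute values of the 9, and PDS5B and NIPBL the smallest. With the same correction DESeq2 called 0 of the 9 members, against 5.71% of 9888 genes in either direction, and their values ran from −0.14 to 0.18. The correction removes whatever runs with GC content and length, so a difference of the cells that did so and a difference of the libraries cannot be told apart. The targeted MACROH2A1, with a GC content of 45.4%, was at −0.40 ± 0.10 after it.

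**Figure D3:**
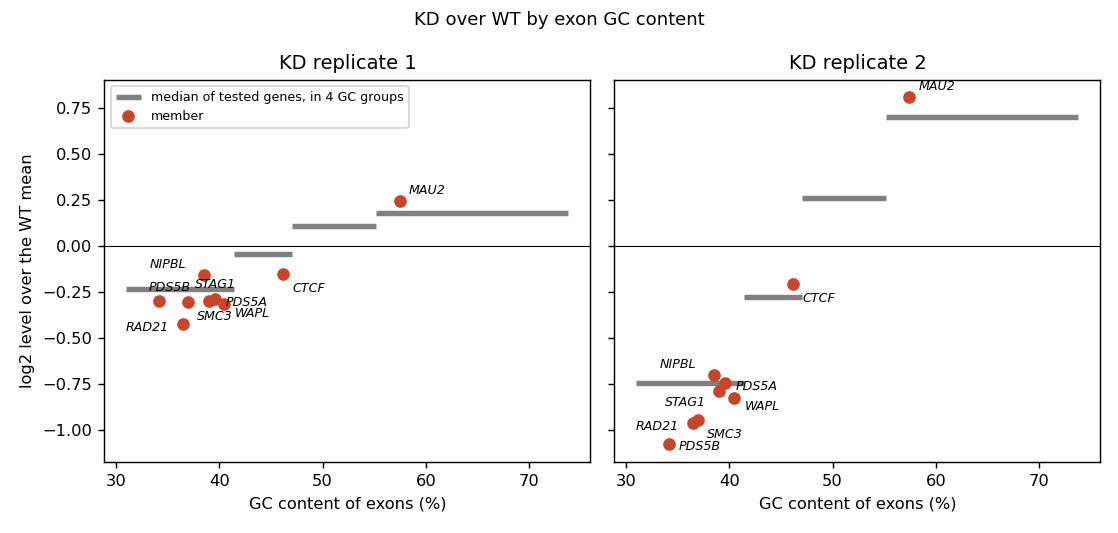
Log2 level over the WT mean (y axis) against the GC content of the exons (x axis, %) in KD replicate 1 (left) and KD replicate 2 (right). Red points are the 9 genes and grey bars the medians of the tested genes in each of 4 GC groups; both are higher at a higher GC content, from −0.75 to 0.70 for the medians in KD replicate 2.

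Compared per length, the members spanned a wide range in WT cells. In FPKM, which is CPM per kilobase of summed exon length, PDS5A had a mean of 31.4 ± 1.69 (SD, n = 2), RAD21 of 30.6 ± 1.52, WAPL of 29.4 ± 0.116, NIPBL of 23.4 ± 1.45 and SMC3 of 20.99 ± 0.528. STAG1 followed at 13.7 ± 1.14, PDS5B at 8.99 ± 0.799, CTCF at 8.45 ± 0.224 and MAU2 at 4.83 ± 0.594. The WT libraries of PDS5A and RAD21 overlapped, as did those of PDS5B and CTCF, and no other neighbours in this order did. RAD21 and PDS5A stood above 89.2% and 89.6% of the genes tested, and MAU2 above 40.9%. The order depends on the length used, since per canonical transcript RAD21 came first (120 FPKM), SMC3 next (58.9) and PDS5A after them (53.8), with MAU2 again last (11.0). In KD the libraries of MAU2 and PDS5B overlapped, with MAU2 below PDS5B in KD replicate 1 (5.72 against 7.30 FPKM) and above it in KD replicate 2 (8.46 against 4.26 FPKM).

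The rest of the cohesin genes were read from lists of known members. SMC1A and STAG2, the other subunits of the mitotic ring, and HDAC8, the deacetylase that recycles SMC3, lie on the X chromosome and had 0 counts in KD replicate 2, so only KD replicate 1 can be read. SMC1A was at 497 and 512 CPM in WT and 446 CPM in KD replicate 1, STAG2 at 244 and 230 against 199 CPM, and HDAC8 at 38.1 and 34.9 against 37.3 CPM. Of the 10 other mitotic cohesin genes and regulators, 6 were lower in both KD libraries and 0 higher, against 32.8% and 30.1% of all genes tested, a count that includes SMC1A and STAG2 with their zeros. In this list, with a median exon GC content of 42.7%, edgeR called 0 and DESeq2 called 1 lower, against 5.78% of all genes, SGO1, the shugoshin that protects centromeric cohesin. SGO1 had 71.6 and 66.3 CPM in WT and 40.9 and 17.97 CPM in KD (fold change of −1.21 ± 0.44 SE, edgeR adjusted p = 0.359, DESeq2 adjusted p = 0.0902). It was still called by DESeq2 after the GC and length correction, at −0.72 with an adjusted p of 0.0814. The lowest fold change of the list was that of ESCO2, an acetyltransferase of SMC3, at −1.28 ± 0.52 SE, and the highest that of the helicase gene DDX11, at 0.17 ± 0.25 SE.

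Of the 5 meiotic cohesin genes and CTCFL, the paralog of CTCF, SMC1B and CTCFL had 0 counts in all libraries and STAG3 had 1 count in all. RAD21L1 had 17 and 15 counts in WT and 5 and 0 in KD, with a fold change of −1.48 ± 0.75 SE and an edgeR adjusted p of 0.369. REC8 was at 2.38 to 4.04 CPM, with a fold change of 0.35 ± 0.33 SE. Among 13 condensin and SMC5/6 genes, relatives of cohesin that compact chromosomes and aid repair, 10 were lower in both KD libraries and 1 was higher, against 32.8% and 30.1% of all genes tested. The median exon GC content of this list was 42.1%, against 47.2% over all genes tested. Of these 13, edgeR called 0 and DESeq2 called 2 lower, against 5.78% of all genes, SMC2 (−0.80 ± 0.27 SE by edgeR, DESeq2 adjusted p = 0.0884) and SMC4 (−1.08 ± 0.38 SE, 0.0797), the paired ATPase arms of condensin. SMC4 was still called by DESeq2 after the GC and length correction (−0.61, adjusted p = 0.0362) and SMC2 was not (−0.26). NCAPH2, on chromosome 22, had 0 counts in KD replicate 2 and can be read in KD replicate 1 alone, at 32.7 CPM against 31.8 and 44.9 CPM in WT. Among the genes with a usable value in all libraries SMC4 had the lowest fold change of the list, and NSMCE1 the highest with 0.57 ± 0.30 SE. NSMCE3 was not analysed here.

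Among 8 other looping and boundary factors, 4 were lower and 3 higher in both KD libraries, against the same 32.8% and 30.1%, and the median exon GC content was 45.6%. The only one called by DESeq2 was VEZF1, a zinc finger protein of insulators, at 223 and 228 CPM in WT and 138 and 125 CPM in KD (edgeR −0.77 ± 0.14 SE, adjusted p = 0.359; DESeq2 adjusted p = 9.34e-06). The KD libraries of VEZF1 were close to each other, as those of CTCF were, and its DESeq2 value after the correction was −0.47, under the fold threshold with an adjusted p of 0.000242. MAZ, a zinc finger protein that binds beside CTCF and whose gene has an exon GC content of 65.9%, had the highest fold change, 0.80 ± 0.39 SE (edgeR adjusted p = 0.364), and was at 68.5 and 71.9 CPM in WT, 80.3 CPM in KD replicate 1 and 165 CPM in KD replicate 2.

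The genes most like the members' mean pattern over the 4 libraries, among 9685 ranked by the distance of centred log2 CPM, were KPNA3 (0.0189), NCKAP1 (0.0208) and ARID4A (0.0262), with exon GC contents of 38.6%, 39.0% and 39.5%. PDS5A was the member nearest to that mean pattern (0.129) and MAU2 the farthest (1.17).

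Neighbouring genes share some of these loci. SUGP1 starts 320 bp from MAU2 on the other strand and was at 32.9 and 33.9 CPM in WT and 34.7 and 46.7 CPM in KD (0.28 ± 0.23 SE, edgeR adjusted p = 0.509). Near the start of RAD21, the antisense RNA RAD21-AS1 had 3 counts in WT replicate 1 and 0 in the other libraries, and MIR3610 had 0 in all. Non-coding transcripts that start within 3 kb of CTCF, STAG1, NIPBL and WAPL were not analysed here.

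The histone variant was then read at the genes from the ChIP-seq peaks, which were called in bins of 3 kb with 1 library per antibody, so that no difference between antibodies can be tested. A peak counted as lying at a start when it overlapped the 500 bp on either side, and an mH2A1.1 peak as common when it overlapped a peak of total mH2A1. An mH2A1.1 peak lay at the start of 3 of the 9 members, CTCF, MAU2 and PDS5A (33.3%, exact Clopper-Pearson 95% interval of 7.49% to 70.1%), against 46.2% of 11703 genes tested. A common peak lay at the start of 1 member, PDS5A, against 25.7%, and a peak of total mH2A1 at that of none, against 18.2%. Anywhere within the gene, 6 members had an mH2A1.1 peak, against 71.6%, and 1 had a peak of total mH2A1, against 42.1%. Each of these shares was below that of all genes, and the 95% interval of each, as wide as 9 genes make it, took in the share of all genes.

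The starts differed in the form of the peak. At CTCF (chr16:67562467-67639177, plus strand) the peak was a single bin, chr16:67560001-67563000, that took in the start and 533 bp after it, and the next mH2A1.1 peak upstream, 36000 bp wide and common, ended 17467 bp before the start. At PDS5A (chr4:39822863-39977956, minus strand) the peak was 66000 bp wide, chr4:39975001-40041000, and reached from −63044 bp to 2955 bp relative to the start. Of that stretch, 36000 bp were also covered by peaks of total mH2A1, the nearest of them 6045 bp before the start. At MAU2 (chr19:19320829-19358754, plus strand) a peak of 12000 bp, chr19:19314001-19326000, covered the start and was not common.

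MAU2 was also the only member with broad cover inside the gene. Its body, from 50 bp after the start to the end, was covered to 68.3% by mH2A1.1 peaks. The common mH2A1.1 peak chr19:19338001-19395000, which ran past the end of the gene, covered 54.8% of it. That peak was common only through a peak of total mH2A1 that began 247 bp past the end of MAU2. No part of the MAU2 body was covered by a peak of total mH2A1. The other members had at most 5.74% (PDS5A), and the median over the 9 was 0.721% against 7.97% over the genes tested. Single bins of mH2A1.1 lay inside STAG1 (chr3:136746001-136749000, 3403 bp after the start), NIPBL (chr5:37011001-37014000) and PDS5B (chr13:32721001-32724000). RAD21, SMC3 and WAPL held no peak of either antibody, the nearest mH2A1.1 peaks being 33776, 20684 and 13209 bp from their starts. The sole peak of total mH2A1 inside a member was in PDS5A, chr4:39936001-39939000.

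**Figure D4:**
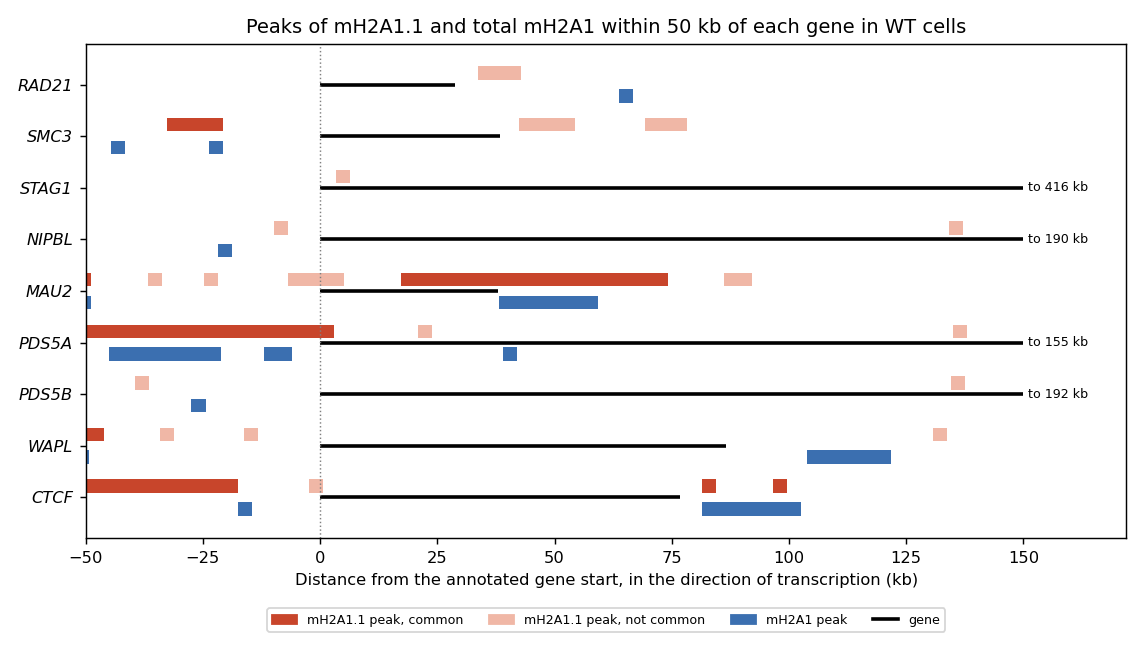
mH2A1.1 peaks (red, dark where common with total mH2A1) and total mH2A1 peaks (blue) by distance from each gene's start in the direction of transcription (x axis, kb), with the gene as a black line; peaks within 50 kb of a gene are drawn, cut at the plot's edges. Peaks touch the start of CTCF, PDS5A and MAU2, and MAU2 alone is covered over most of its length.

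Set beside the RNA, the 3 members with an mH2A1.1 peak at the start had uncorrected fold changes of −0.18 (CTCF), −0.50 (PDS5A) and 0.55 (MAU2). The 6 without one lay between −0.41 and −0.67. After the correction for GC content and exon length, CTCF, PDS5A and MAU2 were at −0.15, −0.09 and 0.12. The 6 without a peak at the start then lay between −0.17 and 0.05, so the groups overlapped. MAU2, the only member higher in KD before that correction, had both the most mH2A1.1 cover and the most GC-rich exons. Within 9 genes these cannot be told apart. NIPBL (0.05) and PDS5B (0.04) were also positive after the correction.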

How the data were processed

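The authors made the deposited counts of reads per gene from stranded total RNA-seq reads aligned to hg38 with STAR 2.5.1. Poorly mapped and duplicate reads were discarded. For the counting the paper gives HTSeq at its default settings, and the strand setting used was not tested here. The other deposited values, the positions of ChIP-seq peaks, were called by the authors with normR against the input, with all scores at 0 in the lists. The input and the 4 promoter capture Hi-C samples are not used here.

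The main test was that of edgeR 4.0.16 (R 4.3.3; TMM factors, filterByExpr, quasi-likelihood test, Benjamini-Hochberg adjustment over all genes tested). Calls needed a fold change over 1.5 with an adjusted p under 0.1. DESeq2, which the study also used, served as an alternative, here in version 1.42.0. Both were run on counts simulated with a smaller coefficient of variation than the 0.361 of the main fit. That run therefore does not show which changes edgeR could call in these data. Genes were matched to GENCODE 44 (23061 of 23167 identifiers). The correction removed a lowess trend (span of 0.3) on exon GC content and length from each library. The trend was fitted to log2 CPM after each gene's mean over the libraries of the fit was subtracted. FPKM used the TMM-scaled depth. Nothing in the labels says that replicates came from separate cultures, so p-values measure the spread between these libraries, which may be technical. Depth ranged from 2309549 to 9794674 counts.

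The named genes were all 9 members, the targeted gene, the called, zero-count and extreme genes of each list, the 3 genes of the nearest pattern and genes starting within 3 kb. The members and lists were chosen with earlier results of these data known. Gene starts were those of GENCODE, and a peak was common at an overlap of 1 bp. Motif and promoter sequences came from RefSeq (GRCh38.p14).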

Additional observations from a re-analysis of the deposited data

How the results depend on the processing

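Over the settings other than DESeq2 and the removal of a KD library, edgeR called 0 genes and 0 members, and the members' directions held except for NIPBL and PDS5B. These 2 changed sign with the correction for GC content and exon length in edgeR (0.0515 and 0.0432), with GC content alone (0.0683 and 0.0642), with the full correction in DESeq2 (0.0853 and 0.0834) and with the full correction without KD replicate 2 (0.0831 and 0.0850), none past the threshold. The cause was not tested. The genes called numbered 945 by DESeq2, 926 with its default filtering target, 874 without chromosomes 21, 22 and X, 565 with the correction in DESeq2 and 708 by edgeR with the correction and without KD replicate 2. Members called were 1 by DESeq2 and 1 without chromosomes 21, 22 and X, both times RAD21, and 0 with the default target or the correction. Of the listed cohesin, condensin and looping genes, DESeq2 called 4, 4 with its default target, 7 without those chromosomes and 2 with the correction. With 1 library left out, edgeR called 0 to 5574 genes, 0 to 8 members and 0 to 20 listed genes, and DESeq2 4 to 4373 genes, 0 to 8 members and 0 to 18 listed genes, the highest each time without KD replicate 1. Without KD replicate 2 the counts were 966 by edgeR and 403 by DESeq2. The corrections other than that in edgeR with both KD libraries, and the DESeq2 settings beyond its first run, were added after the data were seen.

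The replicate numbers of the labels do not pair the samples by any stated batch, and the differences between replicates of WT and of KD correlated at r = 0.04 over the genes tested (0.25 without chromosomes 21, 22 and X). With the replicate block edgeR called 0 genes and 0 members, and the members' fold changes ran from −0.69 to 0.53.

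A common mH2A1.1 peak at the start was found in 1 member, and in 3 when all mH2A1.1 peaks were counted, in 0 when the stretch shared by both lists had to reach the start and in 2, MAU2 and PDS5A, when the start of any transcript counted. Windows of 1 kb and 3 kb, or a peak covered to at least 50%, left it at 1. A stricter peak score was not run, since all scores are 0. KD replicate 2, with 125 to 510 counts per member, has the widest counting error, and 1 ChIP library per antibody gives no error at all.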
